A study of Homo sapiens with 12 samples.

Results

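The 8 genes described here encode the catalytic subunits of the proteasome in their interferon-linked and constitutive forms and the PA28 activator. They were taken by gene symbol from 60099 genes, and all 8 passed the filter on low counts. The immunosubunits were PSMB8 (β5i), PSMB9 (β1i) and PSMB10 (β2i), the constitutive catalytic subunits were PSMB5 (β5), PSMB6 (β1) and PSMB7 (β2), and the PA28 subunits were PSME1 (PA28α) and PSME2 (PA28β). Levels came from RNA sequencing of the established head and neck squamous cell carcinoma (HNSCC) lines Cal27 and HN30, left untreated or exposed for 24 h to IFNα, a type I interferon. The 12 samples carry a letter, A to F, and a replicate number, 1 or 2. Untreated controls were A and D, the dose was 20 ng/ml IFNα in B and E and 200 ng/ml IFNα in C and F, so each dose had 4 samples and each letter had 2. The letters form 2 sets, A-C and D-F, each with all 3 doses, taken here as the 2 lines with no line name attached. No genetic change is named for any group, and nothing in the labels says whether the 2 samples of a letter were separate cultures, so that p-values measure only the spread between these samples, which may be technical.

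The proteasome degrades ubiquitin-marked proteins in a barrel whose cutting sites lie in the β1, β2 and β5 subunits. Interferons are known to switch on β1i, β2i and β5i, which replace their constitutive counterparts in newly assembled barrels and yield more peptides that fit class I molecules. PA28, a ring of α and β subunits, opens the end of the barrel. PSMB8 and PSMB9 lie in the class II region of the major histocompatibility complex beside TAP1, which carries peptides into the endoplasmic reticulum.

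Total estimated counts per sample ranged from 10517448 to 16056734, and at these depths 3 counts, a floor that covers counting error only, were 0.187 to 0.285 CPM, counts scaled to the library total. The lowest estimated count of a member in a sample was 76, for PSMB10, while every other member had at least 489 in each sample. Pearson's correlation over 13033 genes was 0.933 to 0.970 within and 0.631 to 0.675 between the letter sets. Of 8 squamous epithelial markers, 8 reached 1 TPM in at least 1 sample of A-C, while D-F had 7, KRT14 staying below it. The summed level of 3 endothelial markers was 15.3 to 21.7 TPM in A-C, where CDH5 alone reached 1 TPM, and at most 0.733 TPM in D-F, and that of 6 fibroblast markers was 5.55 to 15.4 TPM over both sets. The summed level of 7 leukocyte markers was 5.38 to 13.2 TPM in controls and 18.9 to 40.6 TPM at 200 ng/ml, while without CD68 it was 0.0891 to 3.12 TPM in controls and 0.992 to 1.55 TPM at 200 ng/ml. CD14 and CD68 reached 1 TPM in at least 1 sample of both sets and ITGAM in A-C, while PTPRC, CD3E and LYZ were at most 0.0425, 0 and 0.202 TPM in any sample. The part of these markers in the results was not tested.

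The member genes lie on chromosomes 6, 9, 14, 16 and 17, given here on GRCh38 as in the files. PSMB8 (ENSG00000204264, chr6:32840717-32844703, minus strand) and PSMB9 (ENSG00000240065, chr6:32844136-32859585, plus strand) overlap by 568 bases on opposite strands, and TAP1 lies inside the annotated span of PSMB9 on the other strand. PSME1 (ENSG00000092010, chr14:24136158-24138967, plus strand) and PSME2 (ENSG00000100911, chr14:24143362-24147570, minus strand) are neighbours, and PSMB5 (ENSG00000100804, chr14:23016543-23035230, minus strand) is on the same chromosome. PSMB10 (ENSG00000205220) is at chr16:67934502-67937087, PSMB6 (ENSG00000142507) at chr17:4796144-4798503 and PSMB7 (ENSG00000136930) at chr9:124353466-124415444. The libraries kept the strand, but the strand setting used for counting is not given in the sources used here, so that reads from the overlapping stretches of PSMB8, PSMB9 and TAP1, and the 888 bases that PSME2 shares with RNF31, may not be fully separated. PSMB10 shares 1516 bases on the same strand with AC040162.1, which was at 1.14 to 4.31 TPM.

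Promoter stretches are shown because 4 members carry the same short interferon-linked motif in them and the main PSMB8 transcripts start in different ones. RefSeq sequences on GRCh38.p14 were found for 6 of the 8 members, in 8 windows of 300 bases, and no window was used for PSMB6 and PSMB7. The letters GAAANNGAAA, the core of the interferon-stimulated response element (ISRE) bound by the factor that type I interferon activates, and TTCNNNGAA, the gamma-activated site (GAS) of interferon-responsive promoters, were searched on both strands. Each line runs 5′ to 3′ along the gene, from 170 bases before the start used for its window through the 30 bases from that start on. Matches to either motif are in capitals. GAAAGCGAAA and TTTCGCTTTC are the ISRE core in its forward and reverse orientations, and capitals that begin with TTC and end with GAA are GAS matches.
PSMB8, start of PSMB8-202, chr6:32844018-32844217, minus strand: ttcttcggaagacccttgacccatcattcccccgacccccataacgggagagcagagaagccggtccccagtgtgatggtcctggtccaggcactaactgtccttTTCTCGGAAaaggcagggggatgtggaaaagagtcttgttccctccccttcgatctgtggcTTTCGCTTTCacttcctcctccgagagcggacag
PSMB8, upstream start, chr6:32844650-32844849, minus strand: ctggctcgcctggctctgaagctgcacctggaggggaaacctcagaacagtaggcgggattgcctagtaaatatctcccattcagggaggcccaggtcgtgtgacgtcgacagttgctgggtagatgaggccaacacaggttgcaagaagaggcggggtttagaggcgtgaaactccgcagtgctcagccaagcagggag
PSMB10, chr16:67936821-67937020, minus strand: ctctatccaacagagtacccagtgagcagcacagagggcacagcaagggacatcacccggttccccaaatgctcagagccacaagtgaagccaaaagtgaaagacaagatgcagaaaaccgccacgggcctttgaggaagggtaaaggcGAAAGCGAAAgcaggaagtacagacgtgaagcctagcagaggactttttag
PSME1, chr14:24136024-24136223, plus strand: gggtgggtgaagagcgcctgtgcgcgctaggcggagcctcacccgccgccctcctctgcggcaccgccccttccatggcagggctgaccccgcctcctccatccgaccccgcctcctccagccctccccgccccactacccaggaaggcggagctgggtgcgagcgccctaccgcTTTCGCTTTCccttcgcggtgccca
PSME2, chr14:24146581-24146780, minus strand: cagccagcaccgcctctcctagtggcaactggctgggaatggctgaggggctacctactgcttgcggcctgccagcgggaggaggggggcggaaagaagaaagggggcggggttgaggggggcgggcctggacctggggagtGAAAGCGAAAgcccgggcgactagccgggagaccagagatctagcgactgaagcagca
PSMB9, chr6:32854022-32854221, plus strand: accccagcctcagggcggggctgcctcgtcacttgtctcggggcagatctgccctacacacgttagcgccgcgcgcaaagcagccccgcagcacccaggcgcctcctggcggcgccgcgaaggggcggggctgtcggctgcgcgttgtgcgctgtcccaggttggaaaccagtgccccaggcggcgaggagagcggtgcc
TAP1, chr6:32853675-32853874, minus strand: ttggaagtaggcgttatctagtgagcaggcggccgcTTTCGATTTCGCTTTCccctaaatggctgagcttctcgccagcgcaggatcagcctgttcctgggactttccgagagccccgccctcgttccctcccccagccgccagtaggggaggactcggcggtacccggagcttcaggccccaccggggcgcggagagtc
PSMB5, chr14:23034871-23035070, minus strand: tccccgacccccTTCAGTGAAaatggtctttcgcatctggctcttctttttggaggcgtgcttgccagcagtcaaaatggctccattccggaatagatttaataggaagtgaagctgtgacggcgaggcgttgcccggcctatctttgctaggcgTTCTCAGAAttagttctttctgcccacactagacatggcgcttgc

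The ISRE core was present in 1 window each of PSMB8, PSMB10, PSME1 and PSME2, always as the same 10 bases or their reverse complement, and in 3.57% of all 35116 windows. Its first base was 4 bases before the start of PSMB8-202. It was 21 bases before the start used for the PSMB10 window, 28 before that for PSME2, and at base 6 from that for PSME1. PSMB10-201, PSME1-201 and PSME2-201 start 237, 36 and 611 bases before the start used for their window. For these transcripts the core lies after the transcript start. Several other transcripts of these genes start closer to the start used or after it. The upstream PSMB8 window, the PSMB9 window and both PSMB5 windows had no match to these letters, and among the windows of other proteasome genes 3 of 54 (5.56%) had one, those of PSMB4, PSMG4 and PSMA4. In the windows of genes that were at least 2-fold higher at 200 ng/ml the share was 30.2%. The PSMB9 start and the TAP1 start of the window shown are 488 bases apart on opposite strands. That TAP1 window held 2 overlapping ISRE cores, TTTCGATTTC and TTTCGCTTTC. They lie 354 to 369 bases before the PSMB9 start and so outside the PSMB9 window. The other TAP1 window, with its start at chr6:32852761, had no ISRE core and 1 GAS match. GAS matches were found in the PSMB8-202 window, where the first base was 65 bases before the start, against 7.66% of all windows. They were also found in the PSMB5 window shown, at 158 and 15 bases before the start. The other PSMB5 window, with its start at chr14:23035220, is not shown and had no GAS match. That start is the nearer one for ENST00000361611 and ENST00000425762, which held 35.8 and 43.1% of PSMB5 TPM in the controls. PSMB10, whose window held an ISRE core, did not pass the test at either dose. A match is a description of letters, and binding was not measured.

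The first comparison asked which of the subunits differed between 200 ng/ml IFNα and control. At 200 ng/ml PSMB9, PSMB8, PSME2 and PSME1 were higher than in the controls, by 2.54-, 1.68-, 1.47- and 1.35-fold, and none of the 3 constitutive catalytic subunits passed the test. Thus 4 of 8 members were higher at an adjusted p of at most 0.05 at any fold (edgeR's quasi-likelihood test, averaged over both line sets), where 4.98% of 19944 genes were. PSMB9 was the 1 member that was also at least 2-fold higher, against 1.58% of genes. In bulk RNA more cells with a message and more message per cell cannot be told apart. With edgeR 0 members were lower, against 4.57% of genes, and DESeq2 also gave 0. At an unadjusted p below 0.05 by edgeR 1 member, PSMB6, was lower. By that rule 6 were higher, PSMB7 and PSMB10 beside the 4 that passed. The median log2 fold change was 0.75 over the immunosubunits, -0.11 over the constitutive subunits, 0.49 over PA28 and -0.01 over all genes.

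**Figure D1:**
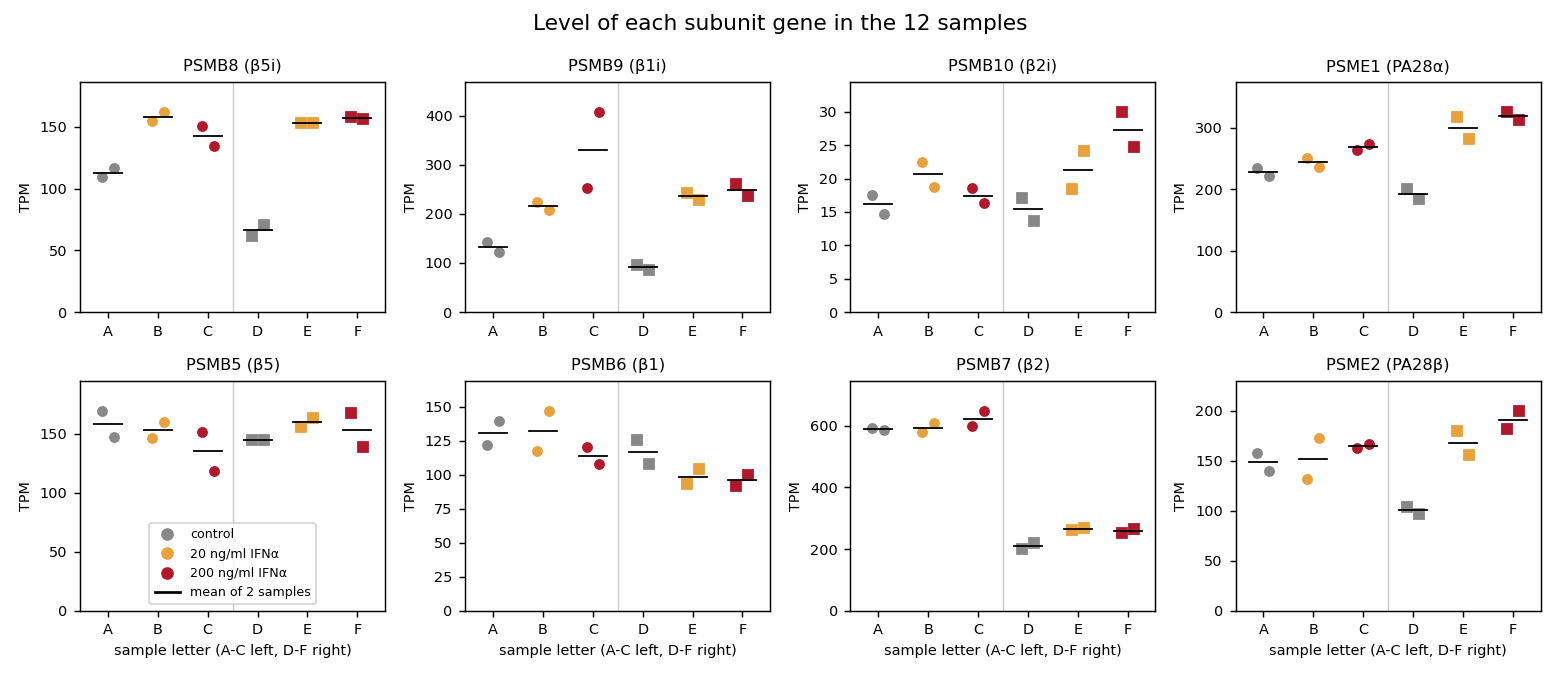
Level in TPM, scaled for transcript length and depth, of each of the 8 genes in the 12 samples by letter, with points for samples, bars for the mean of 2 samples, colours for dose, circles for A-C and squares for D-F. In D-F every treated sample of PSMB8, PSMB9, PSMB10, PSMB7, PSME1 and PSME2 lies above both controls. PSMB7 also separates by line set, at 579 to 649 TPM in A-C and 201 to 268 TPM in D-F.

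PSMB9 encodes β1i, which replaces β1 (PSMB6). Its level was 142 and 123 TPM in A1 and A2, 224 and 207 TPM in B1 and B2, and 253 and 408 TPM in C1 and C2. In the other set it was 95.8 and 85.9 TPM in D1 and D2, 243 and 230 TPM in E1 and E2, and 262 and 236 TPM in F1 and F2. No treated sample overlapped any control of either set, and C2 stood well above C1 and every other sample. The log2 fold change was 1.34 (SE 0.13, adjusted p = 0.000162, edgeR) at 200 ng/ml and 1.00 (SE 0.13, adjusted p = 0.00169) at 20 ng/ml. Without C2 the value at 200 ng/ml was 1.17, and it still passed.

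PSMB8 encodes β5i, which replaces β5 (PSMB5). It was at 109 and 116 TPM in A1 and A2, 155 and 162 TPM in B1 and B2, and 150 and 134 TPM in C1 and C2. It was at 61.8 and 70.8 TPM in D1 and D2, between 153 and 154 TPM in E1 and E2, and 158 and 157 TPM in F1 and F2. Every treated sample again lay above all 4 controls, and the treated levels of both sets fell in one range, 134 to 162 TPM, although the controls did not. The log2 fold change was 0.75 (SE 0.07, adjusted p = 0.000153) at 200 ng/ml and 0.79 (SE 0.07, adjusted p = 0.000147) at 20 ng/ml, by edgeR.

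PSMB10 encodes β2i, which replaces β2 (PSMB7), and was the least abundant member in every sample. It was at 17.6 and 14.8 TPM in A1 and A2, 22.5 and 18.7 TPM in B1 and B2, and 18.6 and 16.3 TPM in C1 and C2. It was at 17.1 and 13.7 TPM in D1 and D2, 18.4 and 24.2 TPM in E1 and E2, and 29.9 and 24.7 TPM in F1 and F2. The groups overlapped in A-C and did not in D-F. Its log2 fold change was 0.40 at both doses (SE 0.17, adjusted p = 0.18 at 200 ng/ml and 0.253 at 20 ng/ml, edgeR), so that a rise was not shown, and its counts of 76 to 152 per sample make it the least precise of the 8.

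None of the constitutive catalytic subunits passed the test at either dose. PSMB5, the β5 subunit, was at 145 to 169 TPM in the controls, 147 to 164 TPM at 20 ng/ml and 119 to 168 TPM at 200 ng/ml, and its log2 change to 200 ng/ml of -0.11 did not pass (SE 0.10, adjusted p = 0.582, edgeR). PSMB6, the β1 subunit, was at 108 to 140 TPM in the controls, 93.0 to 147 TPM at 20 ng/ml and 91.9 to 120 TPM at 200 ng/ml, and its log2 change was -0.27 (SE 0.10, adjusted p = 0.145). In D-F its treated samples, at 91.9 to 104 TPM, all lay below the controls at 126 and 108 TPM, but this did not pass either (log2 fold change -0.33, SE 0.15, adjusted p = 0.273). For PSMB7, the β2 subunit, 200 ng/ml gave a log2 change of 0.16 (SE 0.06, adjusted p = 0.147). Its D-F controls, at 201 and 219 TPM, lay below all 4 treated D-F samples, at 253 to 268 TPM, while in A-C the doses overlapped.

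PSME1 and PSME2, the partners in PA28, moved by less than PSMB9. PSME1 was at 235 and 222 TPM in A1 and A2, 251 and 236 TPM in B1 and B2, and 263 and 274 TPM in C1 and C2, and at 200 and 183 TPM in D1 and D2, 317 and 282 TPM in E1 and E2, and 325 and 313 TPM in F1 and F2. PSME2 was at 158 and 140 TPM in A1 and A2, 132 and 172 TPM in B1 and B2, and 163 and 167 TPM in C1 and C2, and at 104 and 97.0 TPM in D1 and D2, 180 and 156 TPM in E1 and E2, and 182 and 200 TPM in F1 and F2. Both genes had treated samples clear of the controls in D-F, whereas in A-C the PSME2 samples at 20 ng/ml lay on either side of the controls. At 200 ng/ml the log2 fold change was 0.43 (SE 0.06, adjusted p = 0.00232) for PSME1 and 0.56 (SE 0.06, adjusted p = 0.000512) for PSME2, by edgeR.

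At 20 ng/ml the members that passed were also PSMB8, PSMB9, PSME1 and PSME2, 4 of 8 against 2.33% of genes higher at any fold. The weakest was PSME1, at 0.33 on the log2 scale (SE 0.06, adjusted p = 0.0172, edgeR), which rose above 0.05 without A1, A2, B1, D2 or E1 (0.0512 to 0.0734). PSMB9 was just at the 2-fold limit (2.00-fold), so that it counted as the 1 member at least 2-fold higher, against 0.963% of genes, only by a margin smaller than its standard error. Both doses were compared with the same controls. Between 200 and 20 ng/ml 0 of 8 members passed with edgeR and 0 with DESeq2, where 0.135% of genes did by edgeR, and 1 member, PSMB9, had an unadjusted p below 0.05 by each tool. Its log2 difference between the doses was 0.34 (SE 0.12, adjusted p = 0.438), and for PSMB8 it was -0.04 (SE 0.07, adjusted p = 0.923).

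The next question was how the line sets differed. In A-C at 200 ng/ml 1 of 8 members was higher at any fold (PSMB9, log2 fold change 1.30, SE 0.18, adjusted p = 0.00354), against 3.58% of genes, while DESeq2 gave 2 and 4 had an unadjusted p below 0.05 by each tool. Without C2 the fold of PSMB9 in A-C was 1.93 in place of 2.46, and it still passed the test. In D-F at 200 ng/ml PSMB8, PSMB9, PSME1 and PSME2 were higher, 4 of 8 against 3.44% of genes, with PSMB8 at 2.23-fold, PSMB9 at 2.62-fold, PSME1 at 1.56-fold and PSME2 at 1.85-fold. At 20 ng/ml the same 4 members were higher in D-F, against 2.15% of genes. In A-C at 20 ng/ml 0 members passed with edgeR against 0.913% of genes, though 3 had an unadjusted p below 0.05 and DESeq2 gave 2. PSMB9 in A-C at 20 ng/ml changed by 0.68 on the log2 scale (SE 0.18, adjusted p = 0.132) and PSMB8 by 0.47 (SE 0.10, adjusted p = 0.0633).

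**Figure D2:**
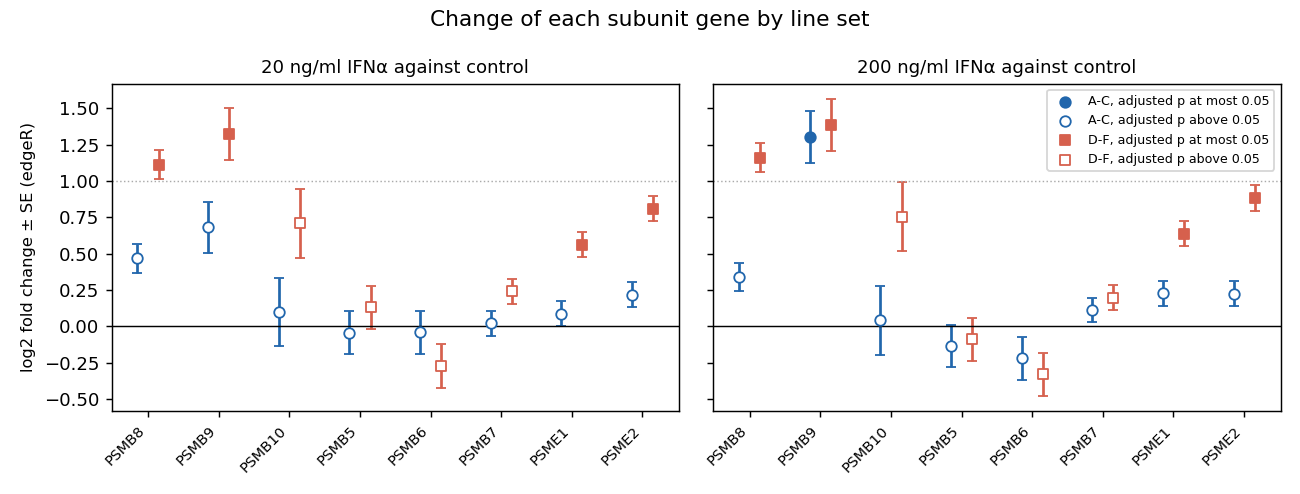
Log2 fold change ± SE (edgeR) of each member against the control of its line set at 20 and 200 ng/ml IFNα, with circles for A-C, squares for D-F, filled symbols for an adjusted p of at most 0.05 and a dotted line at 2-fold. PSMB8, PSME1 and PSME2 are filled in D-F only, while PSMB9 at 200 ng/ml is filled in both sets, at 1.30 and 1.39.

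The difference between the sets was tested directly. At 200 ng/ml the log2 response of PSMB8 was larger in D-F by 0.82 (SE 0.14, adjusted p = 0.0252, edgeR) and that of PSME2 by 0.66 (SE 0.12, adjusted p = 0.0358), so that 2 of 8 members passed, against 1.88% of genes. For PSMB9 the difference was 0.09 (SE 0.25, adjusted p = 0.924), for PSMB10 0.71 (SE 0.33, adjusted p = 0.307) and for PSME1 0.41 (SE 0.12, adjusted p = 0.125). These calls rest on few samples. With a fit of only the letters compared, neither passed (adjusted p = 0.0807 for PSMB8 and 0.0893 for PSME2), PSME2 lost its call without any 1 of the 12 samples, and PSMB8 lost it without A2, B2, C2, D1, F1 or F2. At 20 ng/ml 0 of 8 members passed with edgeR, against 0.371% of genes, while 4 had an unadjusted p below 0.05 and DESeq2 gave 2, PSMB8 and PSME2.

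The untreated sets already differed. In D against A 5 of 8 members were lower at any fold and 0 were higher by either tool, while 22.4% of all genes were lower and 24.1% higher. PSMB8 was lower by 0.89 (SE 0.10, adjusted p = 7.15e-05, edgeR) on the log2 scale, and PSME2 by 0.71 (SE 0.09, adjusted p = 0.000138). PSMB9 was lower by 0.67 (SE 0.18, adjusted p = 0.0115) and PSME1 by 0.36 (SE 0.09, adjusted p = 0.00693). PSMB9 lost its call without A1 or D2 (0.0651 and 0.0678), and PSME1 without D2 (0.0564). Only PSMB7 was lower by at least 2-fold, against 11.0% of genes, with a log2 difference of -1.60 (SE 0.09, adjusted p = 8.42e-07), and its D-F samples lay below its A-C samples at every dose. After treatment with 200 ng/ml the order of the sets was not kept for PSMB8, PSME1 and PSME2. There the mean was 157 TPM in F and 142 TPM in C for PSMB8, 319 and 268 TPM for PSME1, and 191 and 165 TPM for PSME2. The mean of PSMB9 stayed lower in F than in C, where C2 was at 408 TPM. With 20 ng/ml PSMB8 was at 153 TPM in E and 158 TPM in B, while the means of PSMB9, PSME1 and PSME2 were higher in E. These differences between treated sets were not tested.

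Each immunosubunit was next set against the subunit it replaces, as a ratio of TPM within each sample. PSMB8 to PSMB5 was 0.644 and 0.789 in A1 and A2 and 0.426 and 0.489 in D1 and D2, and lay between 0.935 and 1.13 in all 8 treated samples. So the β5i message was below the β5 message in every control and about equal to it after IFNα. With both doses pooled the log2 ratio was 0.84 higher than in the controls, a 1.79-fold difference (exact permutation test within line sets, two-sided, p = 0.00444, the smallest that its 225 arrangements allow, 0.00889 after Benjamini-Hochberg adjustment over the 4 ratios). The difference was 0.55 in A-C and 1.12 in D-F.

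PSMB9 to PSMB6 was 1.16 and 0.878 in A1 and A2, 1.91 and 1.41 in B1 and B2, and 2.10 and 3.78 in C1 and C2. It was 0.763 and 0.794 in D1 and D2, 2.61 and 2.20 in E1 and E2, and 2.85 and 2.35 in F1 and F2. No treated sample reached down to a control. The log2 ratio was 1.38 higher after IFNα, a 2.61-fold difference (exact permutation test, p = 0.00444, adjusted 0.00889), at 1.09 in A-C and 1.68 in D-F.

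PSMB10 to PSMB7 remained far below 1 in all samples, at 0.0251 to 0.0389 in A-C and 0.0626 to 0.118 in D-F, with PSMB7 higher in A-C. The log2 ratio was 0.26 higher after IFNα, which did not pass (exact permutation test, p = 0.116, adjusted 0.154). PSME1 to PSME2 was between 1.37 and 1.93 in all samples, with a log2 difference of -0.03 (exact permutation test, p = 0.729, adjusted 0.729). The ratios compare messages and not protein.

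**Figure D3:**
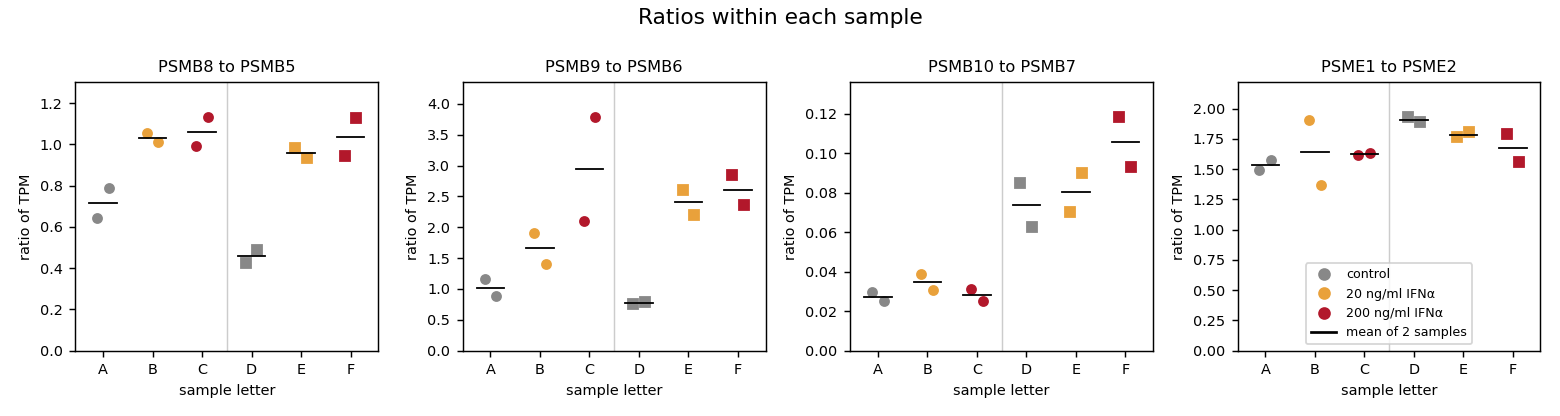
Ratio of TPM within each sample by letter, with points for samples, bars for the mean of 2 samples and colours for dose. PSMB8 to PSMB5 lies at 0.426 to 0.789 in controls and 0.935 to 1.13 in treated samples, and PSMB9 to PSMB6 at 0.763 to 1.16 and 1.41 to 3.78, while for PSMB10 to PSMB7 control and treated samples overlap in both line sets.

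The immunosubunits together made up 22.5 and 23.3% of the TPM of the 6 catalytic genes in A, 29.8 and 32.3% in B, and 32.6 and 38.9% in C. In D-F the share was 26.5 and 27.0% in D, 43.1 and 44.8% in E, and 45.3 and 46.8% in F. The shares did not overlap between control and treated samples of either set. PSMB7 was the most abundant catalytic gene in all A-C samples and in 5 of 6 D-F samples, F1 being the exception.

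Transcripts of the members were examined to see which carried the change. Of 60 listed transcripts 49 passed the filter, and transcript counts are estimates because transcripts share exons. PSMB9-207 (ENST00000374859) held 93.4% of PSMB9 TPM in the controls and 96.4% at 200 ng/ml. It was at 119 and 137 TPM in A, 245 and 398 TPM in C, 74.7 and 89.7 TPM in D, and 225 and 251 TPM in F, so that the control and 200 ng/ml samples of a set did not overlap. It was the 1 member transcript at least 2-fold higher at 200 ng/ml (log2 change 1.34, SE 0.16, adjusted p = 0.0141, edgeR), against 0.343% of 75876 transcripts. At 20 ng/ml 0 member transcripts passed with edgeR at any fold, so that 0 were at least 2-fold higher, against 0.24% of transcripts. At any fold 7 member transcripts had an unadjusted p below 0.05 and DESeq2 gave 5, and the share of all transcripts by that rule is not given here.

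PSMB8 has 2 main transcripts with different starts. PSMB8-202 (ENST00000374882), which begins at the start whose stretch holds the ISRE core, made up 80.8% of PSMB8 TPM in the controls, 88.7% at 20 ng/ml and 82.9% at 200 ng/ml. PSMB8-201 (ENST00000374881), which begins 24 bases before the upstream start, made up 13.1, 4.72 and 10.6%. The level of PSMB8-202 was 86.1 and 109 TPM in A, 133 and 146 TPM in B, and 107 and 135 TPM in C. In the other set it was 43.4 and 56.6 TPM in D, 136 and 137 TPM in E, and 123 and 132 TPM in F. Treated samples lay above both controls in D-F, and in A-C only C2, at 107 TPM, met the controls. Its log2 fold change was 0.74 (SE 0.16, adjusted p = 0.168, edgeR) at 200 ng/ml and 0.92 (adjusted p = 0.107) at 20 ng/ml. PSMB8-201 lay between 3.47 and 25 TPM with its doses overlapping, and its log2 change was 0.43 (SE 0.52, adjusted p = 0.913). For PSMB10, PSME1 and PSME2 the TPM was spread over several transcripts, and none passed at 200 ng/ml with edgeR.

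The rest of the proteasome gives the setting for these values. A list of 46 other genes covered the α and β rings, the 19S cap, other activators, assembly chaperones and the factors NFE2L1 and NFE2L2, which drive proteasome genes. Of these 44 passed the filter, and PSMA8 and PSMB11, at up to 0 and 4 counts per sample, did not. Averaged over both line sets at 200 ng/ml, 0 were higher with edgeR, against 4.98% of genes, and 0 with DESeq2. By each tool 6 were higher at an unadjusted p below 0.05, and the median log2 fold change was 0.05. PSME4, the PA200 activator, was lower (log2 fold change -0.20, SE 0.05, adjusted p = 0.0376), as was PSMB1, a structural β subunit (-0.17, SE 0.05, adjusted p = 0.0489), against 4.57% of genes. Both calls were easily lost, since with each of the 12 samples left out in turn PSMB1 passed 0 times (adjusted p of 0.0649 to 0.146) and PSME4 1 time, without C2 (0.0372 to 0.121). PSME4 was at 62.0 to 70.8 TPM in the controls and 50.8 to 66.6 TPM at 200 ng/ml, with 70.8 and 64.5 TPM in A, 66.6 and 65.0 TPM in C, 63.0 and 62.0 TPM in D, and 50.8 and 51.3 TPM in F. Its log2 fold change was -0.05 in A-C (adjusted p = 0.77) and -0.36 in D-F (adjusted p = 0.0195), and the test of the difference between the sets did not pass (-0.31, SE 0.10, adjusted p = 0.16, edgeR). PSMB1 was at 248 to 329 TPM in the controls and 234 to 284 TPM at 200 ng/ml. In D-F alone at 200 ng/ml, 2 of the 44 were higher and 1 lower with edgeR, where 3.44% of genes were higher. In A-C 0 were higher and 2 lower, where 3.58% of genes were higher. The share of all genes lower in either set alone is not given here, so that the lower counts cannot be set against it. DESeq2 gave 3 higher in D-F and 0 in A-C, and the median log2 fold change was 0.15 and -0.04. The test of the difference between the sets passed for 1 of the 44, against 1.88% of genes. Averaged over both sets at 20 ng/ml, 0 were higher and 0 lower with edgeR, where 2.33% of genes were higher. There 2 were higher and 5 lower at an unadjusted p below 0.05, and DESeq2 gave 0 higher and 1 lower. In untreated D against A 29 of the 44 were lower and 2, PSMD6 and SEM1, were higher, against 22.4% of all genes lower and 24.1% higher, and the median was -0.60 against 0.01 over all genes.

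**Figure D4:**
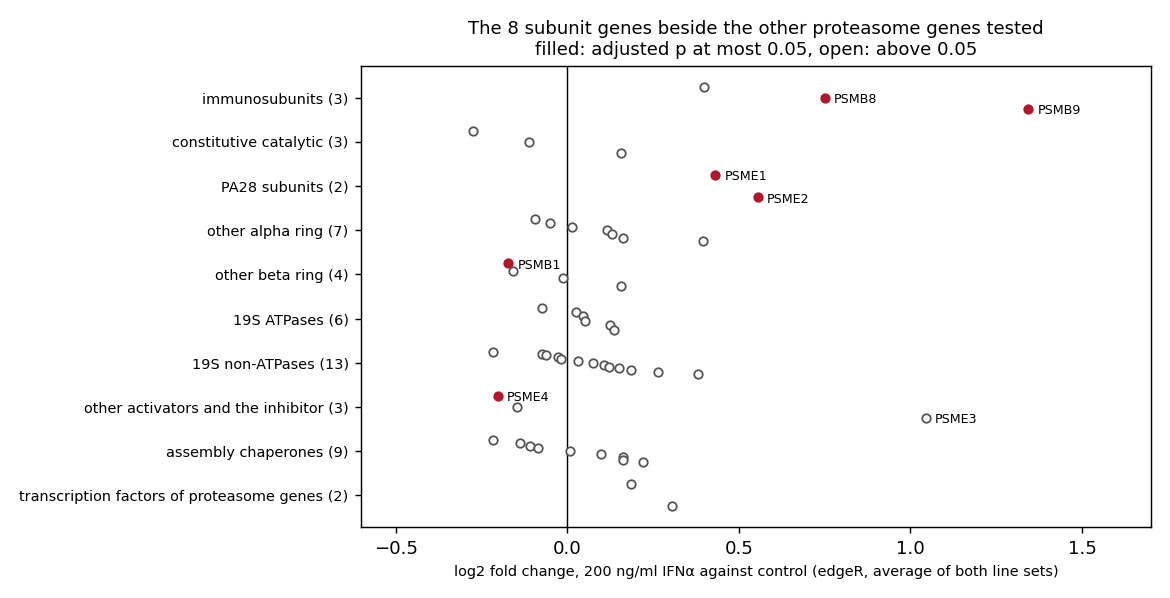
Log2 fold change at 200 ng/ml IFNα against control (edgeR, average of both line sets) for the 8 members and the 44 other proteasome genes tested, by subgroup with the number of genes in parentheses, filled for an adjusted p of at most 0.05. PSMB9, PSMB8, PSME2 and PSME1 are filled to the right, at 0.43 to 1.34, and PSMB1 and PSME4 to the left, at -0.17 and -0.20, while PSME3 is open at 1.05.

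PSMB9 and TAP1 share the stretch between their starts, and TAP1 was set beside it for that reason. TAP1 was at 43.0 and 46.4 TPM in A, 102 and 99.8 TPM in C, 39.1 and 42.3 TPM in D, and 150 and 154 TPM in F. Its log2 fold change was 1.51 (SE 0.06, adjusted p = 3.35e-07, edgeR) at 200 ng/ml, beside 1.34 for PSMB9, and the difference between them was not tested. PSMB8-AS1, which runs opposite PSMB8, was at 2.40 to 14.8 TPM, and its log2 fold change of 0.92 (SE 0.38, adjusted p = 0.177) did not pass.

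The genes whose pattern was most like that of a member were ranked by Pearson's correlation of log2(TPM + 1) over the 12 samples after the mean of each line set was removed, among 19491 genes. These values share the libraries and the dose contrast and are a description. For PSMB8 they included XDH (0.99) and HLA-B (0.98), which encodes a class I heavy chain. For PSMB9 they were C6orf62, ADAR and GBP4, each at 0.98, where ADAR is an RNA-editing enzyme and GBP4 a guanylate-binding protein. For PSME1 they were C5orf56 (0.99), C1S (0.99), a complement protease, and NLRC5 (0.98), an activator of class I genes. For PSME2 they were RTKN2 (0.95), SMPD4P1 (0.95) and NOP9 (0.94), and for PSMB10 they were HEXDC (0.93), CNEP1R1 (0.93) and ZMAT2 (0.92), lower values than for the other members. Among the members the correlation was 0.83 between PSMB8 and PSMB9 and 0.92 between PSME1 and PSME2, and PSMB7 also had 0.52 to 0.88 with the immunosubunits and PA28 subunits. PSMB6 had -0.74 to -0.41 with those genes, and PSMB5 had between -0.19 and 0.35 with the other members.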

How the data were processed

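RNA of 12 samples was sequenced after rRNA removal in strand-specific libraries. Per the submitters' processing notes, Trimmomatic 0.36, HISAT2 2.1.0 and StringTie 1.3.3b were named with GRCh38.p10, without their settings. The authors deposited an estimated count per gene and transcript, in whole numbers not scaled for depth, and TPM, scaled by the authors for length and depth. The deposited FPKM values were not used.

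TPM was used as deposited for levels and ratios. The estimated counts were tested by edgeR 4.0.16 under R 4.3.3 (TMM, filterByExpr, quasi-likelihood test, Benjamini-Hochberg adjustment over all features tested) in one fit of the 6 letters, averaged over line sets, and the standard error is the log2 fold change over the square root of F. DESeq2 1.42.0 was an alternative. The default edgeR and DESeq2 fits were tested on simulated gene counts, for the higher dose against control. No such test is reported for the other settings, the other comparisons or the transcripts. Python 3.11.15, pandas 2.3.3, numpy 2.4.6 and matplotlib 3.10.9 made tables, exact permutation tests and figures. Transcript types came from GENCODE release 29. A feature passed, or was called, at an adjusted p of at most 0.05 at any fold, and a 2-fold limit was added only where it is stated.

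The members, the list of proteasome genes and the motifs were chosen with earlier results of these data known. Named beside them were listed genes that passed at 200 ng/ml, genes overlapping PSMB8 and PSMB9 (PSMB8-AS1, TAP1), transcripts holding at least 10% of a gene's TPM or called, and the 3 genes most correlated with each immunosubunit and PA28 subunit, of which 1 is not reported here. PSME3, PSMD6, SEM1 and the genes with an ISRE core were named after their values were seen.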

Additional observations from a re-analysis of the deposited data

Results flagged for a closer look

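In 36 groups of 4 samples (the 8 members and 4 ratios at 3 doses), 2 had 1 sample far from the other 3, where chance alone would give about 1.8. PSMB9 was at 408 TPM in C2, against 236 to 262 TPM in the other 3 samples at 200 ng/ml, and PSMB5 was at 169 TPM in A1, against 145 to 147 TPM in the other 3 controls. The log2 response to 200 ng/ml differed between the line sets for PSMB8, by 0.82, and for PSME2, by 0.66, both larger in D-F by the test of the difference itself. C2 stayed in the tests, and the values without it are given beside the PSMB9 results.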

How the results depend on the processing

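At 200 ng/ml 4 members were higher at any fold under each alternative except the fit without line set, where 1 remained above the threshold (PSMB9), and at 20 ng/ml that fit gave 0. The 1 member at least 2-fold higher at 20 ng/ml became 0 without a filter on low counts and without line set, and ranged from 0 to 1 when single samples were left out. Members that differed between line sets at 200 ng/ml numbered 1 without a filter, 0 with the letters compared alone and 0 to 1 over left-out samples, and at 20 ng/ml DESeq2 gave 2. Between 200 and 20 ng/ml the count ranged from 0 to 1, and for untreated D against A from 3 to 5. Of the other proteasome genes at 200 ng/ml 1 passed at any fold with RLE size factors, without a filter or with the letters alone, 0 without line set, and 0 to 1 over left-out samples. At 20 ng/ml DESeq2 gave 1 and left-out samples 0 to 1. Member transcripts at least 2-fold higher at 200 ng/ml numbered 3 with DESeq2, 0 without line set or with the letters alone and 0 to 1 over left-out samples, and at 20 ng/ml 3 with DESeq2 and 0 to 1. Tested at 1 dose, where the exact test cannot go below 0.0556, the log2 ratio of PSMB8 to PSMB5 was 0.87 higher at 200 and 0.80 at 20 ng/ml, and that of PSMB9 to PSMB6 1.61 and 1.16. Over left-out samples PSME1 to PSME2 ranged from -0.071 to 0.0085, turning without B2, and the line set difference at 200 ng/ml ranged from -0.19 (without C1) to 0.44 for PSMB9, from -0.18 (without C2, and below 0 also without F1) to 0.32 for PSMB5, from -0.24 to 0.018 (without A1) for PSMB6 and from -0.019 (without D1) to 0.18 for PSMB7. Values of single members were tallied under all alternatives for both doses against control, the line set difference at 200 ng/ml and untreated D against A. Among these 516 kept their direction and side of the threshold, 39 lost their call and 5 turned. The comparison of 200 with 20 ng/ml and the line set difference at 20 ng/ml were not in this tally. The cause was not tested.

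Replicate numbers recur in every letter but did not pair the samples, since the correlation of deviations between same-numbered samples was -0.05 to 0.07. With the number as a block within line sets, 0 members differed between line sets, 0 other proteasome genes passed and 0 member transcripts were at least 2-fold higher at 200 ng/ml. The log2 ratio of PSMB8 to PSMB5 was 0.84 (exact permutation p = 0.0123, the smallest that the blocked arrangements allow).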

Other observations

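PSME3, which encodes the PA28γ ring of the nucleus and which was picked out here after its values were seen, did not pass at 200 ng/ml, with an adjusted p of 0.163 by edgeR for a log2 change of 1.05 (SE 0.42). Its estimated count was 614 and 684 in D1 and D2, 1899 and 550 in E1 and E2, and 2036 and 1992 in F1 and F2. In the other set it was 2635 and 3035 in A1 and A2, 688 and 2853 in B1 and B2, and 2239 and 2397 in C1 and C2. The 12 samples thus fell at 550 to 688 counts or at 1899 to 3035 counts, and replicates of B and of E lay on both levels. TPM varied less, from 72.4 to 149.

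PSME2-201 (ENST00000216802), one of several PSME2 transcripts, held 7.25% of PSME2 TPM in the controls, 23.5% at 20 ng/ml and 16.0% at 200 ng/ml. It was at 5.39 and 15.4 TPM in A, 41.2 and 45.9 TPM in C, 6.11 and 8.45 TPM in D, 31.0 and 48.6 TPM in E, and 12.3 and 9.26 TPM in F. Its log2 fold change was 2.01 at 20 ng/ml (adjusted p = 0.128, edgeR) and 1.21 (SE 0.37, adjusted p = 0.378) at 200 ng/ml, and neither passed.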
